A study of Mus musculus with 8 samples.

Results

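The constitutive protein-coding promoters of mouse squamous cell carcinoma (SCC) cells were defined as the merged ATAC-seq regions that carried a called peak in all 8 libraries and overlapped the 500 bp on either side of an annotated protein-coding transcription start site (TSS). This rule gave 8003 regions of 69399 merged regions (11.5%), which are 44.7% of the 17917 regions called in every library and 67.8% of the 11797 regions at a coding start called in any library. They hold the starts of 8787 of 21853 annotated protein-coding genes (40.2%). The regions were chosen by the presence of a peak call in each library, so the number of libraries with a call is given only as a description. A call is itself a threshold on enrichment, and a longer region reaches a start more easily, so fold enrichment and length bear on the choice although neither was set in the rule. Base composition and motifs were not used.

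Focal adhesion kinase (FAK, encoded by Ptk2) relays integrin signals at adhesions and also enters the nucleus, and the study asked how FAK, its kinase activity and its nuclear localisation bear on accessible chromatin. The SCC cells came from tumours with mutant Ha-Ras raised with DMBA and TPA in the skin of K14CreER FAKflox/flox FVB mice, and the cultured cells were treated with 4-hydroxytamoxifen to delete FAK. All 4 lines therefore share the deletion and descend from 1 FAK-deficient clone, and none is an unmanipulated tumour. FAK-/- cells express no FAK, FAK-WT cells re-express the wild-type protein from a retrovirus, FAK-nls cells a protein with a mutated nuclear localisation sequence and FAK-kd cells a kinase-deficient protein. Each line has 2 libraries, so differences between lines rest on 2 replicates and cannot be told apart from differences between separately transduced and selected cultures. Both FAK-nls libraries stood apart, with 24383 and 24959 peaks against 32938 to 53703 in the others.

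An active promoter is kept free of nucleosomes around its start site, and Tn5 transposase cuts that DNA in the ATAC assay. Promoters open in nearly every cell usually lie in CpG islands, stretches where the dinucleotide CG has not been lost, and bear sites for general activators such as NF-Y, which binds the CCAAT box, and the SP and KLF zinc finger proteins, which bind GC boxes. Fold enrichment is the mean height of a peak over the local background that the peak caller estimated in the same library, so it measures how sharply a promoter stands out and not only how many fragments it gave. Within each library it was turned into a percentile among all peaks of that library, where 100 is the highest.

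The sequences directly upstream of the start illustrate the range of these promoters. Each run is the 120 bases before the coding start nearest the centre of the region, read 5′ to 3′ on the strand of the gene from GRCm38 (mm10), the build of all positions given here, with CCAAT (or ATTGG on the other strand), GGGCGG (or CCGCCC), the AP-1 letters TGANTCA and, shortly before the start, the letters TATAAA of a TATA box in capitals. The first 5 belong to promoters near the top of the fold enrichment percentile. They lie at chr1:157256683-157256802 (minus strand) for Rasal2, a RAS GTPase-activating protein, chr3:95588814-95588933 (plus strand) for Golph3l, a Golgi protein, chr1:20820313-20820432 (minus strand) for Mcm3, a subunit of the replicative helicase, chr6:54992951-54993070 (minus strand) for Ggct, an enzyme of glutathione turnover, and chr12:83921935-83922054 (minus strand) for Numb, an inhibitor of Notch signalling.
Rasal2: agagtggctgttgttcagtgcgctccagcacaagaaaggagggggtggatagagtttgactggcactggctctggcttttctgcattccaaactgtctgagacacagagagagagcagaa
Golph3l: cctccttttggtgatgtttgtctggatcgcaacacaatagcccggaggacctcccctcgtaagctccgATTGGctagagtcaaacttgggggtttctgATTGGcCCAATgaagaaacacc
Mcm3: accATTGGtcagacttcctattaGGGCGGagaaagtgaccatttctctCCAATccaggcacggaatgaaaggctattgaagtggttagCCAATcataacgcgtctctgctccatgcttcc
Ggct: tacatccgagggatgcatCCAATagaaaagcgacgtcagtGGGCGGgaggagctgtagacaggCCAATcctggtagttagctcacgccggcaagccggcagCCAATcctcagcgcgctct
Numb: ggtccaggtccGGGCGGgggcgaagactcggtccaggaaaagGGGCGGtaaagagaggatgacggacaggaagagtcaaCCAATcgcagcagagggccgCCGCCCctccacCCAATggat
The next 3 belong to promoters at the bottom. They lie at chr12:112674277-112674396 (minus strand) for the kinase Akt1, chr8:84978719-84978838 (minus strand) for the AP-1 subunit Junb and chr15:76195711-76195830 (minus strand) for Plec, which encodes the cytolinker plectin.
Akt1: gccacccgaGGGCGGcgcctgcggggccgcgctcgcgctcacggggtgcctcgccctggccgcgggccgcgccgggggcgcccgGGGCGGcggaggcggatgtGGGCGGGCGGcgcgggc
Junb: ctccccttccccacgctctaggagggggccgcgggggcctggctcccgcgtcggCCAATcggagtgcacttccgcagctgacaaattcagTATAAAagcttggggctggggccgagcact
Plec: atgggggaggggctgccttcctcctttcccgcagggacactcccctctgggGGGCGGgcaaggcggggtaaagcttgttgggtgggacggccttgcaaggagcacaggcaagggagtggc
Golph3l, Mcm3 and Ggct each show 3 CCAAT letters in these 120 bases and Numb shows 2, whereas Akt1 and Plec show none, with 4 GGGCGG matches in Akt1 and 1 in Plec. Rasal2, the highest of all, shows none of these letters, and Junb shows 1 CCAAT box together with a TATAAA match. The 8 are examples picked with their ranks known, and the contrast is not general: of the other high promoters Kbtbd7 shows no CCAAT and Haus7 and Fgd4 show 1 each, and of the other low ones Cic shows 2 and Midn 1.

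Constitutive promoters were long, mostly unbroken peaks. The median width of the merged region was 1177 bp (range 281 to 4350 bp), against 859 bp for the other 9914 regions called in all 8 libraries, and 95.7% of the promoters were covered by a single peak in every library. The median covered length of a promoter was 938 and 867 bp in the 2 FAK-WT libraries, 861 and 809 bp in FAK-/-, 648 and 627 bp in FAK-nls and 788 and 896 bp in FAK-kd. Both FAK-nls libraries lay below all 6 others, and FAK-kd overlapped both FAK-WT and FAK-/-, which did not overlap each other. The line means were 902.5 ± 50.2 bp for FAK-WT, 835.0 ± 36.8 bp for FAK-/-, 637.5 ± 14.8 bp for FAK-nls and 842.0 ± 76.4 bp for FAK-kd (SD, n = 2 each). Lines took up 88.9% of the variance between libraries (p = 0.0667, exact permutation test on every way to pair the 8 libraries, one-sided). The smallest p this design allows is 0.00952.

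The number of peaks moved with these lengths, and so did the coverage. The median pileup of a constitutive promoter, its mean coverage in reads, was 11.1 and 10.9 in FAK-nls against 16.3 to 24.2 elsewhere. The number of sequenced reads was not analysed here, and its part in these lengths was not tested. When each library was cut to its 24383 strongest peaks, which is the whole list of FAK-nls replicate 1, 6095 promoters were still called in all libraries. Over these, the median lengths were 672 and 652 bp in FAK-nls and 794 to 929 bp in the other libraries, again without overlap (p = 0.0667 in the same exact test).

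The median percentile of fold enrichment was 71.0 and 69.4 in FAK-WT, 67.3 and 63.4 in FAK-/-, 61.3 and 59.9 in FAK-nls and 66.3 and 71.2 in FAK-kd. Among each library's own peaks, which differ in number, FAK-nls was again lowest, with a mean of 60.6 ± 1.00 against 70.2 ± 1.12 in FAK-WT (SD, n = 2). Lines took up 83.4% of the variance (p = 0.0762, exact permutation test, one-sided). The order turned with equal numbers of peaks, where the means were 68.7 ± 1.14 in FAK-nls, 56.1 ± 8.85 in FAK-WT, 57.0 ± 3.02 in FAK-/- and 61.3 ± 5.53 in FAK-kd (p = 0.248, exact permutation test). These means are over the 6095 promoters that remained, so both the peak lists and the set of promoters had changed. Ranked among the 17917 regions called in all 8 libraries, with all 8003 promoters kept, FAK-nls was also highest. The means were then 50.9 ± 1.19 in FAK-nls, 44.4 ± 3.72 in FAK-WT, 42.7 ± 1.14 in FAK-/- and 45.9 ± 2.77 in FAK-kd (p = 0.124, exact permutation test). The cause of the turned order was not tested.

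**Figure D1:**
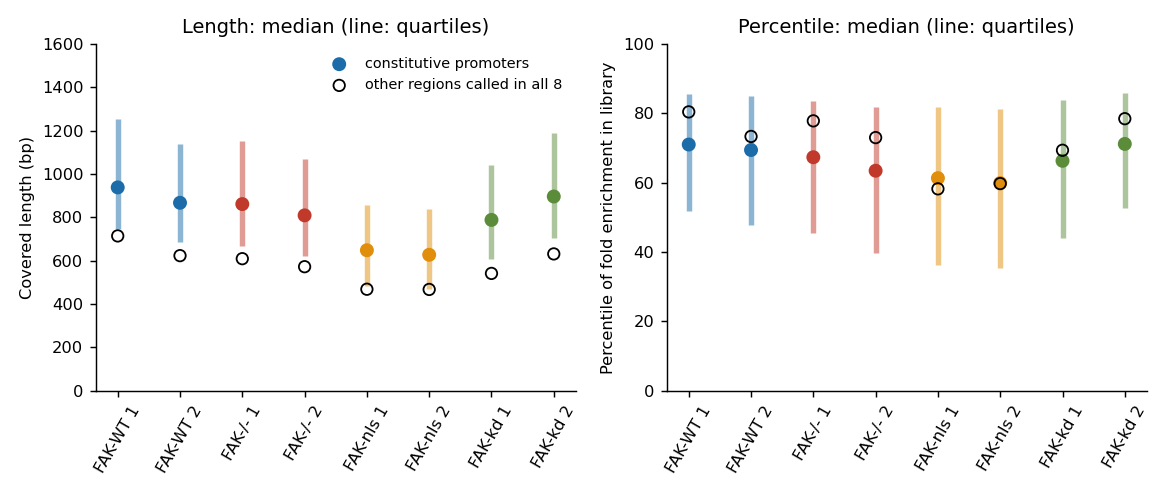
Covered length in bp (left) and percentile of fold enrichment (right) of the 8003 constitutive promoters in each library, as filled median points with bars from the lower to the upper quartile. Open circles are the medians of the 9914 other regions called in all 8 libraries. Promoters are longer than the other regions in every library, while their percentile is below that of the other regions in 6 libraries and above it in both FAK-nls libraries.

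Constitutive promoters exceeded the other regions called in all 8 libraries in length by 226 ± 37.0 bp (mean and SD of the difference in medians, n = 8 libraries, range 160 to 265 bp), given without a test because a longer region overlaps a start window more easily. Their pileup percentile was also higher, by 8.03 ± 4.53 points, in 8 of 8 libraries (exact sign-flip test, two-sided, p = 0.00781, the smallest that 8 libraries allow). Their fold enrichment percentile was lower by 5.06 points on average (difference −5.06 ± 4.97), in 6 of 8 libraries, with differences of 3.09 and 0.164 points in the opposite direction in the FAK-nls libraries (exact p = 0.0469). That p rose to 0.0938 without any 1 of the FAK-WT or FAK-/- libraries or FAK-kd replicate 2 and to 0.0625 without FAK-kd replicate 1. Coverage and fold enrichment thus placed the promoters on opposite sides of the other regions in 6 libraries and on the same side in both FAK-nls libraries. Across the promoters, pileup rose with length (Spearman's rho 0.0657 to 0.284 over the libraries) and fold enrichment fell with it (−0.481 to −0.0368). The choice of longer regions can therefore bear on both tested differences, and its part was not tested.

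The peaks were set off towards the transcribed side of the start. Around the 5′ ends of the 6019 single-gene promoters whose annotated gene start lay within the window, the upstream edge of the peak had its median between −353 bp (FAK-WT replicate 1) and −243 bp (FAK-nls replicate 2), and the downstream edge between 351 and 530 bp. The median centre lay 46 and 45 bp inside the gene in FAK-nls and 71 to 89 bp inside it in the other libraries. A peak covered the start itself in 88.4% and 87.9% of these promoters in FAK-nls and in 92.1% to 95.0% elsewhere. At 500 bp downstream, the coverage was 29% and 27.7% in FAK-nls and 41.4% to 53.0% in the others, and at 500 bp upstream 14.5% and 13.7% against 19% to 26.6%.

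**Figure D2:**
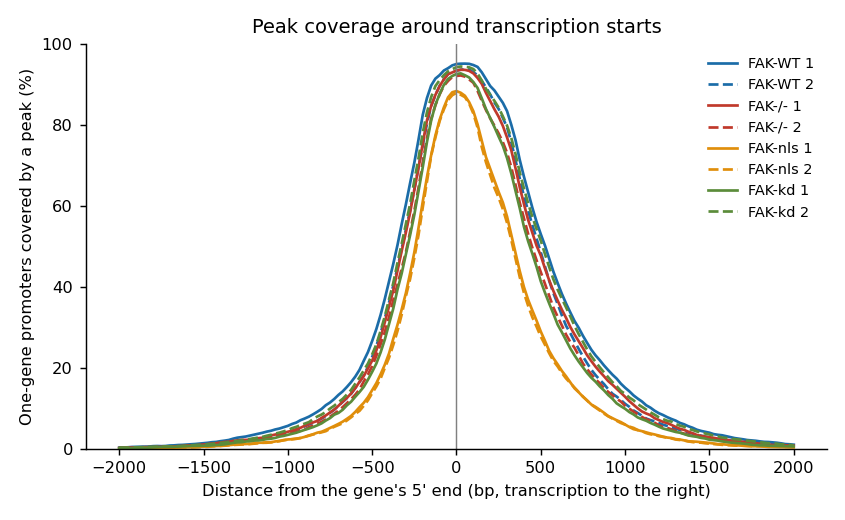
Percentage of 6019 single-gene constitutive promoters whose peak covers each position from 2000 bp before to 2000 bp after the gene's 5′ end, with 1 line per library (replicate 1 solid, replicate 2 dashed). The curves reach further on the transcribed side, and both FAK-nls curves run below the other 6.

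Many promoters were called in all libraries but 1. Of 948 promoter regions called in 7 libraries, 809 lacked a call in a FAK-nls library (404 in replicate 1 and 405 in replicate 2), while 1 and 22 lacked FAK-WT, 13 and 57 FAK-/- and 43 and 3 FAK-kd. These regions just outside the rule had a median fold enrichment of 3.97, a median percentile of 37.8 and a median length of 614 bp, against 4.83, 64.7 and 820 bp for the constitutive promoters. At the other end of the scale 184 constitutive promoters were only 200 bp long in at least 1 library, which is the shortest peak in the lists.

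Promoters at the top of the fold enrichment scale were narrow, with mean lengths below the median of 820 bp. Rasal2 (chr1:157256403-157257533) had the highest mean percentile, 99.9, with a fold enrichment of 9.34 and 10.1 in FAK-WT, 9.49 and 10.5 in FAK-/-, 8.45 and 8.33 in FAK-nls and 9.86 and 10.2 in FAK-kd. Both FAK-nls values were the lowest of the 8. The fold enrichments printed for single promoters are as deposited, without scaling between libraries. Over the promoters, the library medians ran from 4.49 to 5.31 and the maxima from 9.06 to 12.6. Golph3l (chr3:95588481-95589170) followed with 9.80 and 8.44 in FAK-WT, 8.44 and 9.49 in FAK-/-, 8.09 and 8.53 in FAK-nls and 8.87 and 9.1 in FAK-kd, and here the lines overlapped. Mcm3 (chr1:20820068-20820616) had 10.3 and 7.76, 8.65 and 8.80, 8.44 and 8.04, and 8.37 and 10.3 in the same order of lines, so that FAK-WT alone spanned nearly the whole range. The other 7 of the highest 10 were Kbtbd7, a Cullin 3 adaptor, Ggct, the decoy death receptor Tnfrsf23, the shared promoter of Cab39l and Setdb2, the augmin subunit Haus7, the Cdc42 exchange factor Fgd4 and the sterol carrier Stard4, with mean percentiles from 99.5 to 99.7 and mean lengths from 430 to 702 bp. No promoter of the highest 10 had a mean length above 702 bp.

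The leading genes differed somewhat by line. The 3 highest of FAK-WT were Sdc2 (syndecan-2), Ankef1 and Ggct, those of FAK-/- were Herc2 (an E3 ubiquitin ligase), Rasal2 and Sdc2, those of FAK-nls were Tnfrsf23, Numb and Rasal2, and those of FAK-kd were Sdc2, Rasal2 and Kbtbd7. The Sdc2 promoter (chr15:32920542-32920991) had a fold enrichment of 12.6 and 10.3 in FAK-WT, 9.45 and 9.81 in FAK-/-, 7.93 and 6.40 in FAK-nls and 8.91 and 11.9 in FAK-kd. Its FAK-nls values lay below all others. Ankef1 had a mean percentile of 99.9 in FAK-WT and 89.2 in FAK-nls. Herc2 stood at 7.38 and 7.23 in FAK-WT against 10.9 and 9.77 in FAK-/-. Neither Sdc2, Ankef1 nor Herc2 passed the test between lines described further on. The 100 highest promoters of all 4 lines had 22 in common, and FAK-WT shared 51 of its 100 with FAK-/-, 53 with FAK-kd and 27 with FAK-nls. FAK-nls shared 38 with FAK-/- and 45 with FAK-kd, and FAK-/- shared 59 with FAK-kd. The overlap between replicates of a line was not counted, so these numbers have no measure of spread beside them.

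The lowest promoters varied widely in length, from 399 to 2375 bp on average. A region of Sfi1, which encodes a centrin-binding spindle protein (chr11:3184322-3188214), was lowest, with a fold enrichment of 2.32 and 2.18 in FAK-WT, 2.35 and 2.33 in FAK-/-, 2.28 and 2.61 in FAK-nls and 2.14 and 2.31 in FAK-kd. A second Sfi1 region (chr11:3192242-3194152) was also among the lowest 10. This gene may have local copies, so the placement of its reads is uncertain. The main Plec region (chr15:76195613-76196927) had 2.48 and 2.43, 2.56 and 2.45, 2.84 and 2.87, and 2.57 and 2.60 in the same order of lines. Its deposited FAK-nls values were above the rest, but it did not pass the fold enrichment test between lines described further on. Its pileup was high all the same, at a mean of 30.5 reads against a median of 14.8 for the lowest 10% of promoters. The others were a second Plec region, 1600014C10Rik, Akt1, the protocadherin gene Pcdh7, the repressor gene Cic, Ppp1r18 and Ilvbl, with mean percentiles from 0.627 to 2.27. These low ranks are ranks of fold enrichment only: by pileup the lowest 10 stood at mean percentiles of 69.6 to 99.6 and by −log10 p at 18.2 to 56.8, while the highest 10 stood at 87.1 to 99.5 and 97.4 to 99.8. A region of Sfi1 was the lowest in each line, and Plec and Pcdh7 followed in FAK-WT, the other Sfi1 region and Cic in FAK-/-, the other Sfi1 region and Plec in FAK-nls, and Cic and Plec in FAK-kd. The 100 lowest of all 4 lines had 23 in common.

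**Figure D3:**
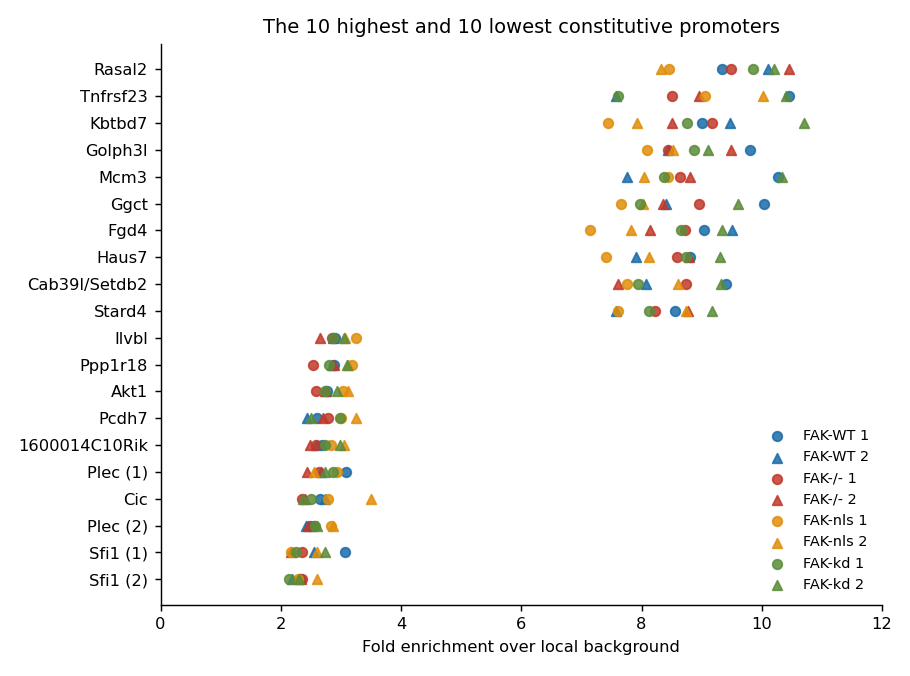
Fold enrichment over local background of the 10 highest and 10 lowest constitutive promoters by mean percentile, with 1 point per library (colour, line; circle, replicate 1; triangle, replicate 2). Genes with a pair of regions are numbered. The upper set lies between 7.15 and 10.7 and the lower set between 2.14 and 3.49, and the libraries mix within most genes.

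On average, ranks agreed slightly more within lines than between them, but this did not hold in every line. Spearman's rho of fold enrichment across the 8003 promoters averaged 0.755 between the 2 libraries of a line (0.649 in FAK-nls to 0.819 in FAK-/-) and 0.714 between lines (0.613 to 0.836). The excess was 0.0406 (p = 0.0476, exact permutation test over divisions into pairs, one-sided). The FAK-/- libraries each agreed most with the other, and FAK-WT replicate 2 most with FAK-WT replicate 1 (0.803). FAK-WT replicate 1 agreed more with FAK-kd replicate 2 (0.836), and FAK-kd replicate 1 more with FAK-/- replicate 1 (0.792) than with FAK-kd replicate 2 (0.750). Both FAK-nls libraries agreed more with FAK-kd replicate 1 (0.674 and 0.684) than with each other. For covered length the means were 0.647 and 0.608 (p = 0.0667, exact permutation test). In all, 3058 promoters (38.2%) lay above the middle of the peak list in every library, 232 lay in the highest 10% of every library and 16 in the lowest 10% of every library.

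Length ran against fold enrichment. From the lowest to the highest 10% of promoters by mean percentile, the median covered length fell from 990 to 735 bp while the median pileup went from 14.8 to 26.7 reads. The Spearman correlation between length and fold enrichment across promoters ranged from −0.481 in FAK-WT replicate 1 to −0.0368 in FAK-nls replicate 1. Fold enrichment is a mean over the whole peak, so it is not independent of length. Between length and pileup the correlation was positive, from 0.0657 in FAK-WT replicate 1 to 0.284 in FAK-nls replicate 1. The longest promoter on average was Gm21738 with 3300 bp, followed by Ppp2r3d, the zinc finger gene Klf13, the DNA demethylase gene Tet3 and the actin-binding gene Tagln2. Klf13 (chr7:63936339-63940614) was 4276 and 3234 bp long in FAK-WT, 3198 and 2199 bp in FAK-/-, 2039 and 2104 bp in FAK-nls and 2278 and 2141 bp in FAK-kd. Both FAK-WT values were the highest, with FAK-/- replicate 1 close behind. Tet3 (chr6:83440497-83443827) had 3328 and 2206, 2337 and 2349, 2131 and 2158, and 2972 and 3294 bp in that order, and the lines overlapped. Gm21738 varied only between 3256 and 3327 bp. Gm21738 and Ppp2r3d may have near-identical copies elsewhere in the genome, so the placement of their reads is uncertain. The 5 shortest were Desi2 (243 bp), Tor1aip2, the retrotransposon-derived genes Rtl8b and Rtl8a, and Gm10717. In all, 2271 promoters exceeded 1000 bp on average and 38 exceeded 2000 bp.

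Some promoters served genes on both strands. There were 983 such regions (12.3%), of which 815 had the genes head to head with a median of 121 bp between the starts. Their median length exceeded that of the 6949 single-gene promoters by 64.1 bp, which is given without a test because a wider region reaches starts on both strands more easily. Their percentile was higher by 2.99 points, in 8 of 8 libraries (exact sign-flip test, two-sided, p = 0.00781). The part of length in the percentile difference was not tested. The promoter shared by Cab39l and Setdb2 was among the 10 highest of all. The regions with the most genes were those of Gon7 and Ubr7 with 2 predicted genes (mean percentile 91.7), of Bola1 with 3 histone genes of the Hist2 cluster (73.5) and of Zc3h11a, Zbed6 and a predicted gene, with 4 gene identifiers under 3 symbols (75.4).

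Base composition set these promoters apart. The median GC content of the region was 60.4% and its median CpG ratio, observed over expected CG dinucleotides, was 0.744, and 80.4% of the regions had a ratio above 0.6. In the other regions called in all 8 libraries the values were 46.6%, 0.207 and 3.52%. In the window from 250 bp before to 50 bp after the 5′ end of each gene, the median CpG ratio was 0.784 for the 8787 genes with a constitutive promoter, 0.595 for 3269 genes called in 1 to 7 libraries and 0.226 for 9797 genes never called.

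Motif letters were then counted in that window, on both strands and with overlaps allowed. The ETS letters CCGGAAG were present at 18.9% of the constitutive genes, 3.09% of the genes never called and 10.8% of all coding genes. The SP and KLF letters GGGCGG stood at 65.3%, 21.1% and 43.0%, the NRF1 letters CGCATGCG at 4.26%, 1.26% and 2.59%, and the YY1 letters AAGATGGCG at 3.10%, 0.245% and 1.68%. The TATA letters TATAAA, sought only on the strand of the gene and beginning 40 to 20 bp before the start, went the other way, with 0.819%, 4.14% and 2.43%. The AP-1 letters TGANTCA did so too, with 4.51%, 8.82% and 6.90%. CCAAT stood at 40.9%, 39.1% and 39.0%, with 33.8% at the genes called in 1 to 7 libraries. A match is a run of letters and not a bound site, and the GC content of the window differs between the classes (60.7% against 48.7%), and its part in these shares was not tested.

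Within the constitutive promoters, the CCAAT box varied with fold enrichment. In the window around the start nearest the centre of each region, its share rose from 25.8% in the lowest 10% of promoters by mean percentile to 65.3% in the highest 10%. The rise was seen in each library taken alone, from between 23.6% and 28.8% in its lowest 10% to between 60.2% and 65.5% in its highest 10%. By the number of boxes, the median percentile was 59.8 for 4868 promoters with none, 68.0 for 1847 with 1, 77.0 for 795 with 2 and 81.1 for 493 with 3 or more, and the same order held in all 8 libraries. GGGCGG was at 74.8% in the lowest and 71.8% in the highest 10%, a difference whose sign turned between libraries, and the ETS letters went from 13.4% to 21.5%. Both depended on the measure: ranked by pileup in each library, the highest 10% had more GGGCGG than the lowest, by 10.6 to 20.8 percentage points, and the differences for ETS were −9.27 to −3.27 points. The reordered letters CACTA and CATCA were at 15.6% to 19.4% and 21.9% to 24.1% in the lowest 10% of the libraries and at 23.3% to 25.7% and 23.0% to 28% in the highest. The median GC content of the window was 65.3% in the lowest and 61.7% in the highest 10%, and its part in the CCAAT share was not tested. Ranked by covered length instead, the highest 10% held fewer boxes than the lowest, by a difference of −11.3 percentage points.

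The box was most frequent upstream of the start. A CCAAT box began 75 to 51 bp before the start in 21.6% of the highest 10% of promoters and in 4.87% of the lowest 10%. Beyond the start, from 25 bp on, the shares were 2.00% and 0.999%. Promoters with the ZNF143 letters ACTACAA also had a high median percentile, 73.3 over 373 promoters against 64.4 without, and those with TATAAA a low one, 55.6 over 61 promoters against 64.8.

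**Figure D4:**
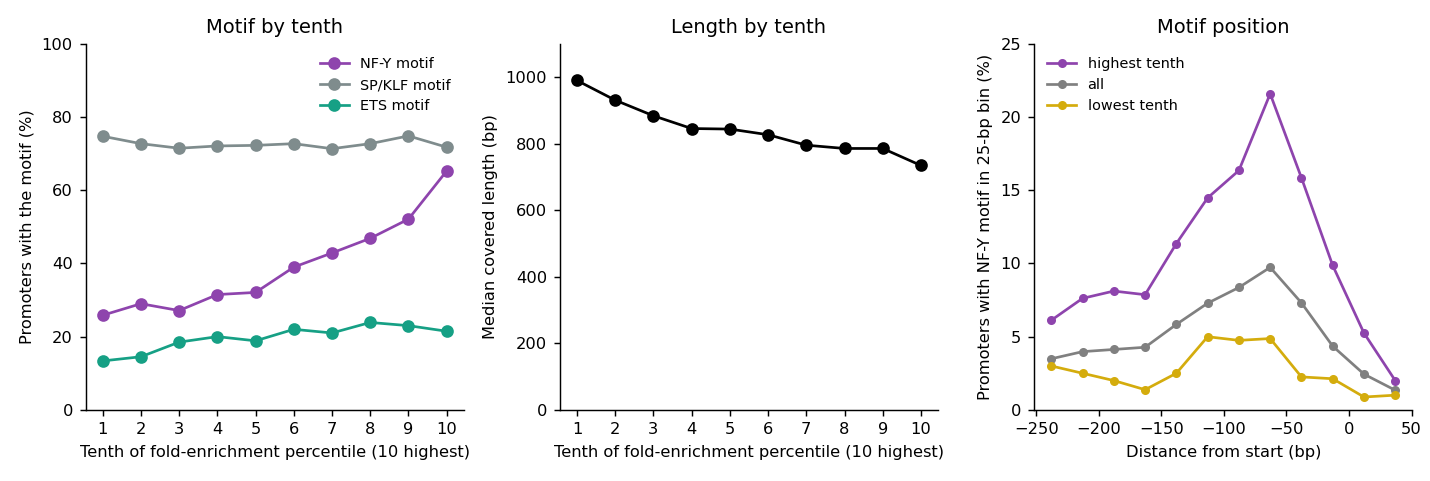
Constitutive promoters in 10 equal groups by mean percentile of fold enrichment (10 is the highest), with the percentage bearing each motif (left) and the median covered length in bp (middle). The right panel shows the percentage with an NF-Y motif beginning in each 25-bp bin around the start for the highest group, the lowest group and all 8003 promoters. The NF-Y motif share rises to 65.3% while the length falls.

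The share of genes with a constitutive promoter, which the choice of regions itself sets, is given by list as a description beside the 40.2% of all coding genes. All 8 chaperonin genes had one, as did 35 of 37 aminoacyl-tRNA synthetases, 17 of 18 replication origin genes, 26 of 30 Mediator genes, 11 of 13 RNA polymerase II genes, 30 of 39 proteasome genes, 62 of 80 cytosolic and 55 of 78 mitochondrial ribosomal protein genes, and 70 of 97 respiratory chain genes. V-ATPase genes (13 of 23) and zinc finger genes with a Zfp symbol (201 of 365, 55.1%) lay nearer the share of all genes. These lists were assembled from gene symbols and include tissue-restricted paralogues, such as Rpl3l and Cox6a2, which count among the genes without one.

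The lists differed in where their promoters ranked. Against a median percentile of 65.8 over all 8787 genes, the replication origin genes stood at 82.0, led by Mcm3 (99.7), Gins4 (97.7) and Gins2 (94.9), with Mcm6 at 47.6 as the lowest, and Mcm2 called in 7 libraries. Mediator, which links activators to RNA polymerase II, stood at 73.3, from Med19 (97.8) to Med18 (29.6). RNA polymerase II itself stood at 41.7, from Polr2d (77.7) to Polr2l (15.8), with its largest subunit Polr2a at 36.8. Cytosolic ribosomal protein genes stood at 59.4 with a short median length of 651 bp, from Rpl15 (96.3) to Rpl7 (7.31), and histone genes at 62.8 with a length of 1013 bp. Translation initiation factors (43 of 55 genes) stood at 66.9, splicing factors (38 of 48) at 60.4 and V-ATPase genes (13 of 23) at 50.9. Commonly used reference genes were spread widely, from Rplp0 (89.7) and B2m (84.5) to Gapdh (39.1), Actb (32.0) and Ywhaz (30.1).

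Immediate-early genes, which respond within minutes to growth factors and stress, combined long peaks with low fold enrichment. Of 18 genes, 15 had a constitutive promoter, and their median percentile was 32.4 and their median length 1065 bp, against 65.8 and 826 bp over all genes. Junb (chr8:84978348-84980360) had a fold enrichment of 2.92 and 2.70 in FAK-WT, 2.89 and 2.52 in FAK-/-, 3.19 and 3.18 in FAK-nls and 3.18 and 3.06 in FAK-kd. Its deposited values in the FAK-nls and FAK-kd libraries were all above those of FAK-WT and FAK-/-. They are not scaled between libraries, and Junb did not pass the fold enrichment test between FAK-WT and the other lines. Myc (mean percentile 4.35) and Egr1 (16.6) were also low, while Klf6 (73.8) and Dusp1 (62.3) were the highest. Fosb, Fosl1 and Zfp36 were called in 6, 5 and 3 libraries.

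**Figure D5:**
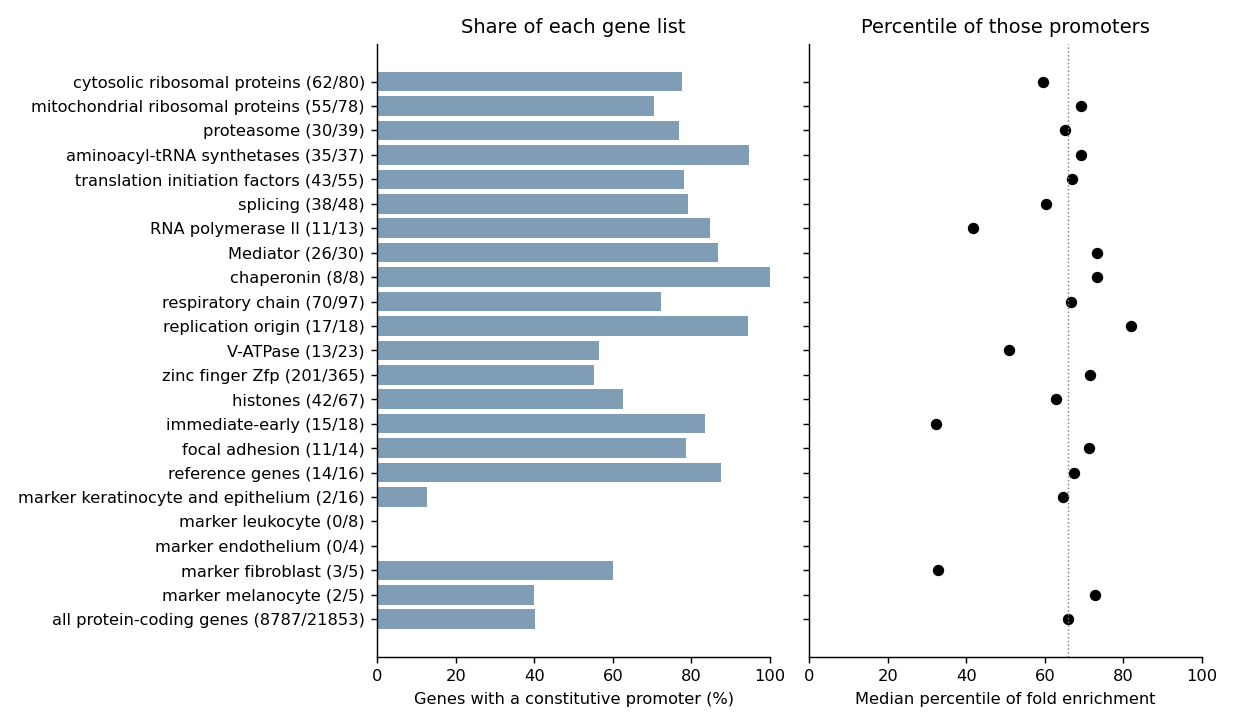
Share of the genes of each list with a constitutive promoter (left, with numbers of genes) and the median percentile of fold enrichment of those promoters (right, dotted line at 65.8 for all coding genes). Keratinocyte markers reach 2 of 16 genes, and RNA polymerase II and immediate-early genes have low percentiles.

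Most of the epithelial markers checked against the label of the cells had no constitutive promoter. Of 16 keratinocyte and epithelial marker genes only Klf5 (mean percentile 85.9) and Jup (43.3) had a constitutive promoter, Krt8 was called in 5 libraries, Lamb3 in 2, Krt14 and Tfap2c in 1, and the promoters of Trp63, Krt5, Krt18, Cdh1, Epcam, Itgb4, Dsp, Perp, Sfn and Grhl2 in none. Of 5 fibroblast markers, Pdgfra, Pdgfrb and Col1a1 had one, with percentiles of 32.8, 46.3 and 23.5, and of 5 melanocyte markers Mitf (89.6) and Pmel, whose region is shared with Cdk2 (56.1), had one. None of 8 leukocyte, 4 endothelial, 4 neuronal and 3 muscle markers did. The leukocyte and muscle promoters were called in no library. Of the endothelial list Cdh5 was called in 2 libraries and Kdr in 1, and of the neuronal list Snap25 and Tubb3 in 6 and Rbfox3 and Syt1 in 1. A called promoter does not show that its gene is expressed, and an uncalled one can be open below the calling threshold.

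Focal adhesion genes, whose products work with FAK at integrin contacts, mostly had constitutive promoters. Of 14 genes 11 had one, with a median percentile of 71.3, from Vcl (82.8), Itgb1 (79.2) and Zyx (78.7) to Tln1 (46.6) and Fermt2 (34.7). Pxn and Vasp were called in 7 libraries and Ptk2b, the FAK paralogue, in 3.

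Of the genes the study followed, Ptk2, Jun, Fosl2 and Cdkn1a had constitutive promoters. The Ptk2 promoter (chr15:73422582-73423686) had a fold enrichment of 5.81 and 5.54 in FAK-WT, 5.02 and 5.00 in FAK-/-, 3.93 and 5.32 in FAK-nls and 6.04 and 5.67 in FAK-kd. FAK-WT lay above FAK-/- and FAK-nls and overlapped FAK-kd, and the log2 difference from FAK-/- was 0.07 ± 0.17 (SE, limma, adjusted p = 0.987). This promoter peak is no check of the deletion inside the gene. Jun, the AP-1 subunit (chr4:95051653-95053545), had 3.64 and 3.86, 3.61 and 3.69, 3.99 and 4.30, and 4.11 and 4.01 in the same order. FAK-nls and FAK-kd were above the other lines, and no contrast passed (adjusted p from 0.410 to 0.999, limma). The cyclin-dependent kinase inhibitor gene Cdkn1a ranged from 587 and 624 bp in FAK-nls to 2166 bp in FAK-WT replicate 2, with FAK-WT replicate 1 at 1257 bp (adjusted p = 0.432 against FAK-nls, limma). Vcam1, Fosl1, Cxcl10 and Il33 promoters were called in 6, 5, 5 and 4 libraries, and those of Ccl5 and Igfbp3 in none.

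No constitutive promoter passed the test for a difference in fold enrichment between FAK-WT and another line. limma on quantile-normalised log2 values with Benjamini-Hochberg adjustment called 0 of 8003 against FAK-/-, 0 against FAK-nls and 0 against FAK-kd, where over all 17917 regions the calls were 0.00558%, 0% and 0.0167%. At an unadjusted p under 0.05 the numbers were 334, 1050 and 222 promoters, or 4.17%, 13.12% and 2.77%, where the shares over all regions were 6.39%, 15.3% and 5.47%. The median SE of a log2 difference was 0.15 and the smallest adjusted p of a promoter was 0.0703. Fitted on pileup instead, limma called 4, 34 and 2 promoters, against 34, 213 and 19 of all 17917 regions (0.19%, 1.19% and 0.106%).

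For length, the share of promoters called between FAK-WT and FAK-nls was near that of all regions. The same fit on log2 length called 17 of 8003 promoters, 16 longer and 1 shorter in FAK-WT (over all regions 0.24% were called, 0.229% longer and 0.0112% shorter), and it called 0 against FAK-/- and 0 against FAK-kd (background 0% in both). At an unadjusted p under 0.05 the numbers were 924 against FAK-nls (11.5%, with 13% over all regions), 376 against FAK-/- (4.70%, with 5.59%) and 309 against FAK-kd (3.86%, with 4.85%). With the replicate block and with only the 2 lines compared, no promoter was called (smallest adjusted p 0.0994 and 0.195, limma). All 17 calls also lost the threshold when any 1 of the 8 libraries was left out, those outside the contrast included. The 17 promoters had been selected in the same libraries for large differences, so an unchanged direction adds no support. The log2 differences kept their direction. That of Trps1 was 2.15 to 2.57 in these fits (adjusted p from 0.0533 to 0.303, limma) and that of Chid1 2.02 to 2.15 (adjusted p from 0.0664 to 0.303). The part of the fewer peaks and lower pileup of FAK-nls in these lengths was not tested.

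The 3 called promoters with the largest differences are given first, followed by Scd2 and Tpm2. The promoter of Trps1, a GATA-type repressor (chr15:50888408-50890486), was covered over 2041 and 1989 bp in FAK-WT, 599 and 742 bp in FAK-/-, 293 and 212 bp in FAK-nls and 948 and 1079 bp in FAK-kd, a log2 difference from FAK-nls of 2.38 ± 0.23 after normalisation (SE, limma, adjusted p = 0.0395). The 4 lines did not overlap, with FAK-WT the longest. This region held 2 separate peaks in each FAK-/- and FAK-kd library and 1 in each FAK-WT and FAK-nls library. Covered length leaves out the gap between peaks, so joining or splitting of a peak by the caller enters these lengths. Chid1 (chr7:141539413-141542151) had 2739 and 2660 bp, 2402 and 1494 bp, 474 and 431 bp, and 2394 and 2509 bp in that order (log2 difference 2.08 ± 0.23, adjusted p = 0.0395, limma), so both FAK-WT values were the highest and both FAK-nls values the lowest. The shared region of Neu2 and Ngef (chr1:87509197-87511054) had 1486 and 1659 bp in FAK-WT, 289 and 202 bp in FAK-nls and 1400 to 1697 bp in the 4 libraries of the other lines (2.06 ± 0.25, adjusted p = 0.0462, limma). Scd2, a fatty acid desaturase gene (chr19:44293426-44296091), was covered over 2440 and 2567 bp in FAK-WT, 1304 and 970 bp in FAK-/-, 603 and 435 bp in FAK-nls and 1124 and 1268 bp in FAK-kd, so that FAK-WT lay above and FAK-nls below all others. Tpm2, a tropomyosin gene (chr4:43522062-43523783), had 324 and 356 bp in FAK-nls and 1350 to 1722 bp in the other 6 libraries. Like Trps1, Scd2 held 2 peaks in each FAK-/- and FAK-kd library and 1 in the others, and Chid1 held 2 in FAK-/- replicate 2 alone. Scd2 and Tpm2 were picked for description after their values were seen. The rest of the 16 were Bcor, Icam5, Crct1, Abcb6, Rcc1, Osbpl3, Phf14, the lysosomal protease gene Ctsd, the ferritin gene Ftl1, the shared region of Fbxl6 and Slc52a2, and Reep5. In Ftl1 each FAK-nls library held 2 peaks and each FAK-WT library 1. The log2 differences after the first 3 ran from 1.41 to 1.95.

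The promoter that was shorter in FAK-WT was that of 2010111I01Rik (chr13:63239586-63241182). It was 349 and 319 bp long in FAK-WT, 1351 and 1434 bp in FAK-/-, 870 and 919 bp in FAK-nls and 1131 and 1104 bp in FAK-kd (log2 difference from FAK-nls −2.05 ± 0.19, adjusted p = 0.0395, limma). Both FAK-WT libraries lay below all 6 others, and FAK-/- was the longest.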

How the data were processed

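The labels gave the line and replicate number of each ATAC-seq library. The authors aligned reads to mm10 with the bcbio pipeline and called broad peaks in each library separately with MACS2 (version 2.1.1 in the submitters' processing notes). For each peak the authors deposited its coordinates and length, the pileup (coverage signal, in reads, not scaled between libraries), the fold enrichment (a ratio of pileup to the local background of the same library), and the −log10 p and −log10 q of that enrichment. Replicates were not pooled. The stated q threshold was 0.05, but the lowest −log10 q in the deposited lists is 1.00, and 0.784% to 3.83% of the peaks per library lie above a q of 0.05. All deposited peaks were used as called. Sequencing depth was not analysed here.

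Autosomal, X and Y peaks that overlapped by 1 bp or more were merged. Coding starts came from GENCODE M21 (GRCm38), 54361 in all. The fold enrichment of a region is that of its highest peak, and its covered length is the sum of its peaks. Lines were compared by exact permutation over divisions into pairs, sets of regions by an exact sign-flip test over libraries, and single regions with limma 3.58.1 in R 4.3.3 (quantile normalisation, 1 fit over all lines, Benjamini-Hochberg adjustment over 17917 regions, threshold 0.05). The fits and exact tests were tested on simulated data. Python 3.11.15 and scipy 1.17.1 were used.

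Named promoters were the 10 highest and lowest by mean percentile, the 3 highest and lowest of each line, the 5 longest and shortest, up to 3 called per contrast and direction, genes of interest in the study, the extremes of each gene list and the regions with most genes. Members, gene lists and the CCAAT analysis were chosen with earlier results of these data known. Alternatives covered the window, the definition of a start, stricter peaks, equal numbers of peaks, other measures and normalisations, a replicate block and leaving out each library.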

Additional observations from a re-analysis of the deposited data

How the results depend on the processing

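The 8003 promoters became 3405 when at least 50% of the region had to be covered in each library, 4681 with peaks of −log10 q of at least 3, 7895 with peaks of q of 0.05 or less (added after the data were seen), 7949 to 8091 with windows of 250 and 1000 bp and 7994 to 8405 without 1 library. The share of variance of median length between lines was 81.9% to 95.4% without 1 library (94.9%, p = 0.0381, exact, without FAK-kd replicate 2, the lowest p of that set), and that of the percentile 75.6% to 92.5%. For the percentile it was 75.7% among the regions called in all 8 libraries and 62.4% with equal numbers of peaks (exact p = 0.124 and 0.248). In both of these settings FAK-nls was the highest line, and not the lowest. The difference in percentile from the other regions called in all 8 libraries was −6.22 to −4.28 without 1 library (exact p from 0.0312 to 0.0938), and it was reversed by pileup, at 8.03 points. For covered length, the excess of rank agreement within lines over that between lines was 0.0390 (exact p = 0.0667). The 39.4 points between the CCAAT shares of the highest and lowest 10% became 32.3 by pileup and 36.3 by −log10 p, and were reversed by covered length, at −11.3. Fold enrichment calls against FAK-/-, FAK-nls and FAK-kd became 4, 34 and 2 on pileup (34, 213 and 19 over all 17917 regions) and were 0 in every other setting run, including each library left out. The 17 length calls against FAK-nls became 13 with median centring, 18 with stricter peaks (a setting added after the data were seen), 0 with only the 2 lines compared, 0 with the replicate block and 0 without any 1 library, and the cause was not tested. The block cannot change a log2 difference here, since each line has 1 library of each number, so Trps1 stayed at 2.38 and Icam5 at 1.88. With only the 2 lines, where only the normalisation can move the difference, Trps1 was at 2.41 and Icam5 at 1.91. Same-numbered libraries deviated with correlations of 0.0555, −0.0256 and −0.202 between FAK-WT and FAK-/-, FAK-nls and FAK-kd for fold enrichment, and of 0.0183, −0.00991 and −0.0896 for length, so the numbers were not taken as pairs, and the crossed block against FAK-kd, added after the data were seen, called 0. The 2 libraries per line limit all p-values here, with a smallest value of 0.00952 for lines. The replicates measure the spread between cultures of 1 clone.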

Other observations

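Constitutive promoters were unevenly spread over the chromosomes. The share of coding genes with one was highest on chromosome 8 (49.0%) and chromosome 12 (48.4%) and lowest among autosomes on chromosome 14 (30.6%). On the X chromosome it was 26.3% (249 of 948 genes), and on the Y chromosome 0 of 183 genes had one.

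The large gene families were represented to different degrees. Of 1092 olfactory receptor genes 3 had a constitutive promoter, namely Olfr654 (chr7:104588021-104588758, mean percentile 94.5) and the neighbours Olfr432 (87.9) and Olfr433 (54.8) on chromosome 1. Of 365 zinc finger genes with a Zfp symbol 201 had one, with a median percentile of 71.4, from Zfp760 (99.1) to Zfp516 (2.59). Of 67 histone genes 42 had one. The promoter of Gm10800 on chromosome 2 had the highest mean pileup, 71.9 reads, with a mean percentile of 86.8. It may lie in sequence with near-identical copies. A total of 290 genes had 2 or more separate constitutive promoter regions, among them Plec, Sfi1 and Rarg.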
